A study of Homo sapiens with 4 samples.

Results

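The genes described here are 8 components of the mitochondrial machinery that builds iron-sulfur clusters: ISCU, NFS1, LYRM4, HSCB, GLRX5, ISCA1, ISCA2 and NFU1. They were chosen by symbol, as a group whose function is known and with earlier results of these data in view, and all 8 were found among the 16057 genes of the deposited RNA-seq table. MM.1S, an established human multiple myeloma line, received 350 nM JG342, an allosteric HSP70 inhibitor, or the solvent DMSO alone, in the same serum-containing medium. RNA came from cells collected at 26 h. Each group has 2 libraries, described as biological duplicates and numbered 1 and 2, and all of them come from 1 line.

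Iron-sulfur clusters are small cofactors of iron and sulfide that carry electrons or hold enzymes in shape. Mitochondria make them on the scaffold ISCU, with sulfur that the desulfurase NFS1 takes from cysteine. The mitochondrial HSP70 protein HSPA9, also called mortalin, then releases the cluster from ISCU, which the J-domain protein HSCB brings to it, and carriers pass the cluster on to the respiratory chain, lipoic acid synthesis and heme synthesis. Because mortalin is an HSP70 protein, the comparison bears on transcripts of a pathway that depends on the class of chaperone that JG342 acts on.

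Values are TPM, which divide reads by transcript length and scale each library to the same total. TPM totals lay between 994463 and 994718, and the steps between low values gave approximate depths of 8610000 to 9580000 reads per library. The test covered 12042 genes averaging 1 TPM or more. Over these genes, which do not stand for replicates, Pearson's r between libraries was 0.992 and 0.990 within treatments and 0.972 to 0.975 between them, on the log2(TPM + 1) scale. The 8 plasma cell marker genes examined were all present, at 22.0 TPM or more in every library. They summed to 4187 to 4928 TPM with DMSO and 4598 to 4936 TPM with JG342. Within that sum, IRF4 was at 353 and 353 TPM with DMSO and 589 and 615 TPM with JG342. PRDM1 was at 176.5 and 154 TPM with DMSO and 220 and 205 TPM with JG342. TNFRSF17 was lower, at 761 and 581.5 TPM with DMSO and 517 and 463 TPM with JG342. For the other plasma cell markers the treatments overlapped. Of 7 markers of other cell types, 6 were in the table; they summed to 51.4 to 61.7 TPM with DMSO and 54.05 to 62.5 TPM with JG342, mostly LYZ. EPCAM was listed at 0 in both JG342 libraries and CD14 in JG342 replicate 1. In bulk RNA, fewer cells of a kind and less RNA per cell cannot be told apart.

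Of the 8 assembly genes, 1 passed the threshold: GLRX5 fell, its mean TPM changing by −24.2%. The other 7 did not pass, with values between −0.27 and 0.24 on the log2 scale. The test was limma on log2(TPM + 1) with a Benjamini-Hochberg adjusted p under 0.05 over all 12042 genes, and all 8 genes entered it. Over all tested genes 18.4% passed, 10.8% as higher and 7.62% as lower, so 1 of 8 is near the background. The median log2 fold change of the 8 genes was −0.14, with 3 higher and 5 lower, against 0.03 over all tested genes. Scaling the libraries to equal medians moved those medians to −0.21 and −0.03, and 1 of the 8 passed there too, beside a background of 18% (8.02% higher and 9.97% lower). The values of the 2 treatments did not overlap for 7 of the 8 genes, where 62.1% of all tested genes did not overlap.

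**Figure D1:**
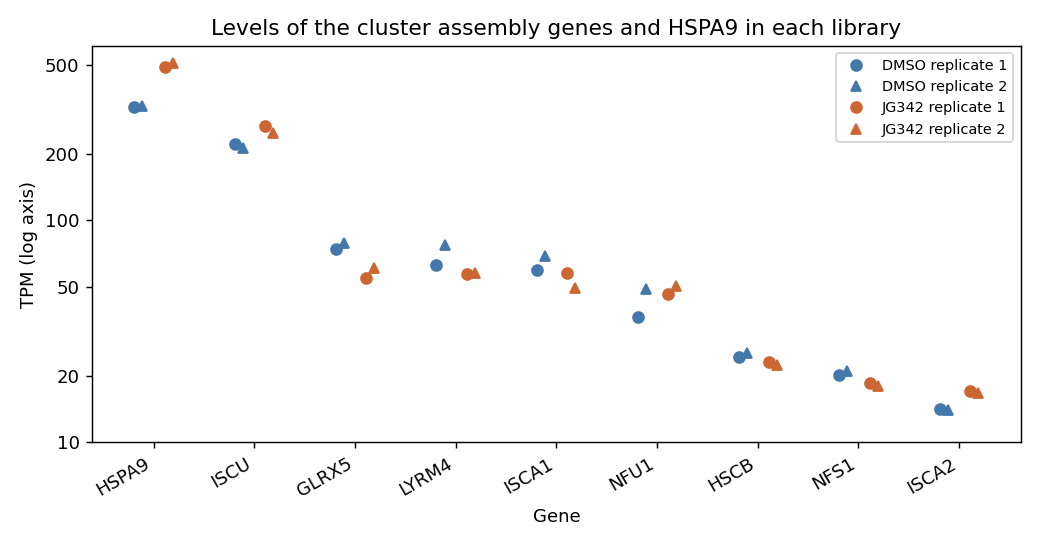
TPM on a log axis of HSPA9 and the 8 cluster assembly genes, one point per library, with circles for replicate 1, triangles for replicate 2, blue for DMSO and orange for JG342. HSPA9 sits at 491 and 511 TPM with JG342 above 323 and 327 TPM with DMSO, while GLRX5 lies lower with JG342 (55.2 and 60.9 TPM) than with DMSO (74.2 and 78.8 TPM), and the treatments overlap only for NFU1.

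The sequences that precede the start sites of ISCU and GLRX5 are shown because ISCU was the most abundant of the 8 genes and GLRX5 was the 1 that passed the test. Both are RefSeq promoter windows of GRCh38.p14, from 250 bases before the start site to 50 bases from it on, on the plus strand. The ISCU window is chr12:108562346-108562645 and the GLRX5 window is chr14:95534800-95535099. Capitals mark matches, on either strand, to the CRE (TGACGTCA), the NRF1 site (CGCANGCGC), the CCAAT box (CCAAT), the E-box (CACGTG) and the C/EBP-ATF composite element (TGATGNAAT).
ISCU: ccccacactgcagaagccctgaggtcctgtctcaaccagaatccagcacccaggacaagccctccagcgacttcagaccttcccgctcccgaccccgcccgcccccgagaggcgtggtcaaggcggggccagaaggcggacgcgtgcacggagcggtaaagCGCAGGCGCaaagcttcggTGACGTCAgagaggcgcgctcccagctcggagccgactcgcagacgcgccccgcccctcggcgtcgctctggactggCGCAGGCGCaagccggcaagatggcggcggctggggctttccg
GLRX5: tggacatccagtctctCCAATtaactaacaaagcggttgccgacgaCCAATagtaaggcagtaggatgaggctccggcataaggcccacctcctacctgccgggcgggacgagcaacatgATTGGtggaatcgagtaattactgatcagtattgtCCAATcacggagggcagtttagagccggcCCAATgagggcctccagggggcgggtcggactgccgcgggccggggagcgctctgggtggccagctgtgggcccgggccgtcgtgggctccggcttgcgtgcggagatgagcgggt

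The ISCU window holds 1 CRE, which 1.85% of the 35116 RefSeq promoter windows of this length hold, and 2 NRF1 sites, as do 2.37% with at least that many. The GLRX5 window holds 5 CCAAT boxes and none of the other capitalised motifs, and 0.359% of windows hold at least 5. The composite element, present in 0.991% of all windows, and the E-box, present in 7.26%, were found in no window of the 8 genes. All 8 genes had a window, and HSCB and NFU1 have several. The cut-offs of 2 and 5 are the counts found in these windows, so those shares were not set in advance. Further motifs were scanned and are not reported here. These are matches of letters and describe the windows only.

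ISCU, the scaffold on which a new cluster is put together, was the most abundant of the 8 genes. Its level (NM_001301140) was 222 and 213 TPM with DMSO and 266 and 249 TPM with JG342. Both JG342 values were above both DMSO values. The log2 fold change was 0.24 ± 0.09 SE and missed the threshold (limma adjusted p 0.1002). A limma fit blocked on the replicate number gave an adjusted p of 0.0141, and that fit with median scaling gave 0.120. The call thus depended on the fit. The p-values of the blocked fit without scaling rest on a spread shared by genes of like level, not on each gene's own replicates.

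NFS1, the cysteine desulfurase that supplies sulfur to ISCU, was measured at 20.1 and 21.0 TPM with DMSO and 18.4 and 18.0 TPM with JG342 (NM_001198989). The groups did not overlap, but the difference, −0.17 ± 0.12 SE in log2 units, did not pass (limma adjusted p 0.372). LYRM4, also known as ISD11, is the small partner that stabilises NFS1. Its values (NM_001164840) were 63.1 and 77.4 TPM with DMSO and 57.3 and 58.2 TPM with JG342. DMSO replicate 2 was the high library, and the difference was −0.14 in pair 1 and −0.41 in pair 2. The fitted log2 fold change was −0.27 ± 0.12 SE (limma adjusted p 0.151), and the blocked fits gave 0.0252 and, with median scaling, 0.0159. Without DMSO replicate 2 the LYRM4 value was −0.13, and without DMSO replicate 1 it was −0.42.

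The sulfur and scaffold genes were present in unequal amounts. TPM is per length, so levels can be set against each other, and ISCU exceeded NFS1 11.03-fold and 10.1-fold with DMSO and 14.4-fold and 13.8-fold with JG342. LYRM4 exceeded NFS1 3.14-fold and 3.68-fold with DMSO and 3.11-fold and 3.23-fold with JG342, and those ranges overlapped. Of 11 such ratios computed after the values were seen, 9 separated the treatments and reached the smallest p that 2 against 2 libraries allow, 0.333 in an exact two-sided permutation test (0.407 after Benjamini-Hochberg adjustment). No ratio could pass 0.05 in this design. The share of other gene pairs whose ratios separate was not computed. Among single tested genes, 62.1% did not overlap between the treatments.

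Among 7 other genes of the core assembly step, 1 rose and 1 fell, beside 10.8% higher and 7.62% lower over all tested genes, with a median log2 fold change of −0.0024. FDXR, the reductase that feeds electrons to the ferredoxins, was at 9.36 and 7.73 TPM with DMSO and 11.9 and 14.9 TPM with JG342, a change of 0.59 ± 0.16 SE (limma adjusted p 0.0380). Its call was lost after median scaling (limma adjusted p 0.0770), after quantile normalization (0.102), without the filter (0.121) and without the trend (0.0568), and without DMSO replicate 1 (0.0699), DMSO replicate 2 (0.221) or JG342 replicate 2 (0.140). NDUFAB1, the acyl carrier protein that binds LYRM4, was at 170.1 and 188 TPM with DMSO and 135 and 141 TPM with JG342. It fell by 0.38 ± 0.10 SE in log2 units (limma adjusted p 0.0282), and NDUFAB1 per LYRM4 went from 2.70 and 2.44 to 2.35 and 2.42. The NDUFAB1 call was lost without the filter (limma adjusted p 0.0713) and without the trend (0.0868), and without DMSO replicate 1 (0.0639), DMSO replicate 2 (0.202) or JG342 replicate 1 (0.0973). Neither ferredoxin, FDX1 or FDX2, and neither mitochondrial iron importer, SLC25A28 or SLC25A37, passed.

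At the chaperone step, HSPA9 rose while its dedicated J-domain partner did not pass the test. HSCB, which brings ISCU to mortalin and starts its ATP cycle, was at 24.3 and 25.2 TPM with DMSO and 23.0 and 22.3 TPM with JG342 (NM_001318314). Both JG342 values were the lower ones, by −0.07 in pair 1 and −0.17 in pair 2, and the fitted value was −0.12 ± 0.12 SE (limma adjusted p 0.509). HSPA9 (NM_004134) went from 323 and 327 TPM to 491 and 511 TPM. Its log2 fold change was 0.62 ± 0.09 SE (limma adjusted p 0.00259).

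The HSPA9 transcript was 13.3 and 13.0 times as abundant as HSCB with DMSO and 21.3 and 22.9 times with JG342. Relative to ISCU, its client here, HSPA9 went from 1.46 and 1.54 to 1.85 and 2.05. Both ratios were higher in each JG342 library than in each DMSO library (exact two-sided permutation p 0.333 each, the smallest possible).

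Of mortalin and 4 cofactors, HSPA9 was the 1 gene that passed, as higher, beside 10.8% of all tested genes, and the median log2 fold change of the 5 was 0.27. GRPEL2, a nucleotide exchange factor of mortalin, was at 18.9 and 26.0 TPM with DMSO and 29.1 and 33.1 TPM with JG342, a value of 0.47 ± 0.16 SE (limma adjusted p 0.0737). GRPEL2 passed when blocked (limma adjusted p 0.000782, and 0.0132 with median scaling), as it did without DMSO replicate 2 (0.69, limma adjusted p 0.0479). Without DMSO replicate 1 its log2 value was 0.25 (limma adjusted p 0.382). Its paralog GRPEL1 was at 41.6 and 45.5 TPM with DMSO and 38.9 and 47.0 TPM with JG342, so the groups overlapped (−0.02 ± 0.13 SE, limma adjusted p 0.920; 0.04 without DMSO replicate 2 and 0.11 without JG342 replicate 1). DNLZ, which keeps mortalin soluble, ran from 70.5 to 92.1 TPM with DMSO and enclosed both JG342 values, 88.1 and 81.4 TPM (0.07 ± 0.13 SE, limma adjusted p 0.755; −0.12 without DMSO replicate 2). DNAJA3, another mitochondrial J-domain protein, was at 91.3 and 96.6 TPM with DMSO and 111 and 116 TPM with JG342 (0.27 ± 0.10 SE, limma adjusted p 0.0876, or 0.0159 with the block and 0.0827 with block and median scaling).

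**Figure D2:**
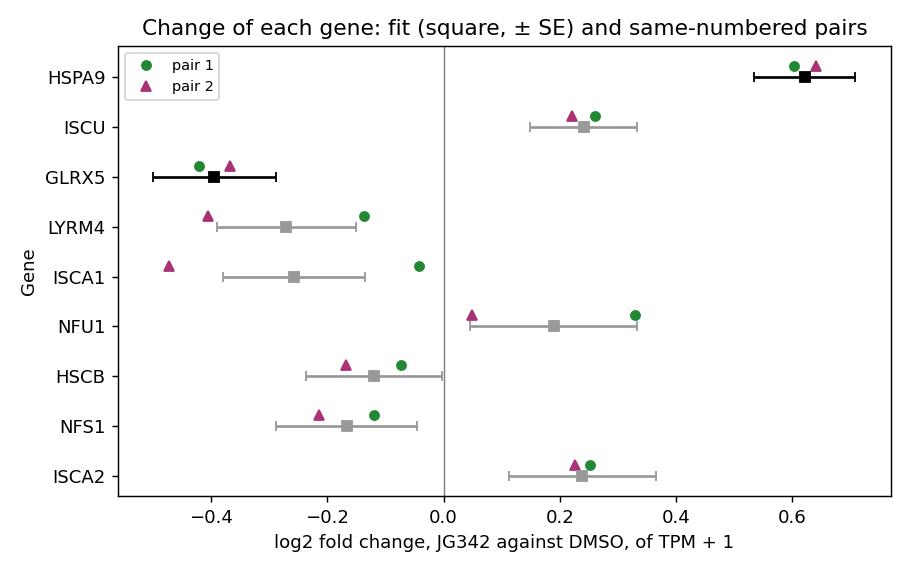
Log2 fold change of TPM + 1, JG342 against DMSO, for HSPA9 and the 8 assembly genes: squares with bars give the limma estimate ± SE, black where the adjusted p was under 0.05, and green circles and purple triangles give same-numbered pairs 1 and 2. HSPA9 (0.62) and GLRX5 (−0.39) are black, and ISCA1 has the pairs farthest apart, at −0.04 and −0.47.

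GLRX5, the glutaredoxin that takes the cluster from ISCU after the chaperone step, was the 1 gene of the 8 that passed the test. Its values (NM_016417) were 74.2 and 78.8 TPM with DMSO and 55.2 and 60.9 TPM with JG342. Every JG342 value was below every DMSO value, and the pairs were alike, at −0.42 and −0.37. It fell by 0.39 ± 0.11 SE in log2 units (limma adjusted p 0.0327; mean TPM −24.2%). The call was lost without the filter on low values (limma adjusted p 0.0750) and without a mean-variance trend (0.0801). It was also lost without DMSO replicate 1 (0.0955), without DMSO replicate 2 (0.187) and without JG342 replicate 1 (0.132), with log2 fold changes between −0.46 and −0.32 over the libraries left out. HSPA9 per GLRX5 went from 4.35 and 4.15 to 8.90 and 8.38.

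ISCA1 and ISCA2 are paralogs that act as a pair in forming the larger, cubane-type clusters. ISCA1 (NM_030940) was at 60.0 and 69.3 TPM with DMSO and 58.2 and 49.7 TPM with JG342. The lowest DMSO and the highest JG342 library were close, and the log2 fold change was −0.04 in pair 1 and −0.47 in pair 2. The fitted value was −0.26 ± 0.12 SE (limma adjusted p 0.178), and the blocked fits gave 0.0375 and, with median scaling, 0.0336. Without JG342 replicate 2 the ISCA1 value was −0.15.

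ISCA2 (NM_001272007), the least abundant of the 8 genes, was at 14.1 TPM in both DMSO libraries and at 17.0 and 16.6 TPM with JG342. The groups were apart, but the fitted 0.24 ± 0.13 SE did not pass (limma adjusted p 0.221). The ISCA2 transcript rested on approximately 32 to 40 reads per library. It has a processed pseudogene, ISCA2P1, with 96.0% identity over 35.4% of its length, and 22.1% of it overlaps NPC2 on the opposite strand, so its value is uncertain. ISCA2 per ISCA1 went from 0.235 and 0.203 to 0.291 and 0.334, a difference of 0.52 on the log2 scale (exact two-sided permutation p 0.333, the smallest possible).

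NFU1, a late carrier that hands finished clusters to enzymes such as lipoic acid synthase, was at 36.9 and 49.1 TPM with DMSO and 46.6 and 50.8 TPM with JG342 (NM_001002755). It was the gene of the 8 whose groups overlapped, because DMSO replicate 2 was above JG342 replicate 1. The log2 value was 0.19 ± 0.14 SE (limma adjusted p 0.390), and it was −0.01 without DMSO replicate 1 and 0.39 without DMSO replicate 2.

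By level with DMSO the order was ISCU, GLRX5, LYRM4, ISCA1, NFU1, HSCB, NFS1 and ISCA2, and it was the same with JG342. GLRX5, LYRM4 and ISCA1 overlapped their neighbours in that order under both treatments, and with JG342 ISCA1 also overlapped NFU1. ISCU stood at percentile 94.4 of the tested genes by its DMSO mean, NFS1 at 49.7 and ISCA2 at 39.7.

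Profiles were also compared over the 4 libraries as the distance between centred log2(TPM + 1) values, among 84 other genes (the rest of the 8 and the pathway lists). The gene nearest ISCU was ISCA2 (distance 0.06), the gene nearest NFS1 was HSCB (0.05), and the gene nearest GLRX5 was NDUFAB1 (0.07). LYRM7 was nearest HSCB (0.04), CISD3 nearest ISCA1 (0.08), CIAO3 nearest ISCA2 (0.06), ABCE1 nearest LYRM4 (0.08) and CIAO2B nearest NFU1 (0.06). With 4 libraries, these describe the values only.

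Among genes that act after or beside these 8, between 1 and 5 of each list passed, to be read beside the 18.4% of all tested genes that did. Of 6 late targeting and export factors, 1 passed: BOLA3, which works with GLRX5 and NFU1, went from 134 and 146 TPM to 104 and 100.2 TPM and fell by 0.45 ± 0.10 SE in log2 units (limma adjusted p 0.0137; 0.112 without DMSO replicate 2 and 0.0537 without the trend). GLRX5 per BOLA3 was 0.553 and 0.541 with DMSO and 0.533 and 0.608 with JG342, so the ranges of this ratio overlapped. IBA57, which assists ISCA1 and ISCA2, had a value of −0.04 ± 0.14 SE and did not pass.

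In the cytosolic assembly machinery 1 of 11 genes passed, as lower, beside 7.62% of all tested genes, with a list median of −0.09. NUBP1, a scaffold protein of that pathway, went from 66.15 and 64.6 TPM to 52.6 and 50.6 TPM and fell by 0.33 ± 0.10 SE in log2 units (limma adjusted p 0.0492). Its transcript overlaps TVP23A on the opposite strand over 26.1% of its length, so its value is uncertain. The NUBP1 call was close to the threshold and was lost with a pseudocount of 0.1 (limma adjusted p 0.0507) and without each of the 4 libraries in turn (0.0982 to 0.199), as well as without the filter (0.0745) and without the trend (0.101).

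Of 16 mitochondrial proteins that carry or make use of a cluster, 2 rose and 1 fell, with a median of −0.11. Those 3 of 16 are near the 18.4% called over all tested genes. MOCS1, which starts molybdenum cofactor synthesis, was at 0.98 and 1.12 TPM with DMSO and 3.97 and 3.53 TPM with JG342 (1.21 ± 0.19 SE, limma adjusted p 0.00441; 1.74 with a pseudocount of 0.1). FECH, ferrochelatase, the last enzyme of heme synthesis, went from 10.5 and 11.96 TPM to 21.7 and 19.9 TPM (0.84 ± 0.14 SE, limma adjusted p 0.00483). NDUFV2, a cluster subunit of respiratory complex I, went from 859 and 889 TPM to 636 and 588 TPM and fell by 0.51 ± 0.09 SE in log2 units (limma adjusted p 0.00678; 0.0677 without DMSO replicate 2). A pseudogene, NDUFV2P1, matches 74.6% of the NDUFV2 transcript at 98.1% identity, so that value is uncertain. LIAS and SDHB, lipoic acid synthase and the cluster subunit of complex II, had values of −0.11 and −0.05 and did not pass.

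Cytosolic and nuclear cluster proteins gave 5 lower and 0 higher calls among 22 genes, where 10 had an unadjusted limma p under 0.05, and a median of −0.22. Over all tested genes 7.62% were called lower and 10.8% higher. The 5 were NTHL1, POLD1, DDX11, DNA2 and POLA1, which act in DNA repair or replication. NTHL1, a DNA glycosylase, went from 33.0 and 30.8 TPM to 22.1 and 20.8 TPM and fell by 0.55 ± 0.12 SE in log2 units (limma adjusted p 0.0136; 0.0930 without DMSO replicate 1, 0.0667 without DMSO replicate 2 and 0.0510 without the filter). The other 4 fell by 0.39 to 0.61 (limma adjusted p 0.0168 to 0.0424), and DDX11 has near-identical pseudogenes, so its value is uncertain. Without DMSO replicate 1 or without DMSO replicate 2, 0 of the 22 passed in limma (9 and 6 at an unadjusted p under 0.05). Median scaling gave 8 lower calls, beside 9.97% of all genes, and the block gave 9, beside 15.7%.

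LYRM4 belongs to a family of small mitochondrial proteins with a leucine-tyrosine-arginine motif, and 2 of 10 others in the family rose, beside 10.8% of all tested genes. LYRM9 was at 0.43 and 0.15 TPM with DMSO and 2.01 and 2.88 TPM with JG342 (1.41 ± 0.24 SE, limma adjusted p 0.00562). Its DMSO mean was 0.29 TPM, so it met the filter of 1 TPM only through its JG342 values. A gene that enters this way can only appear as higher. LYRM9 is counted in the 2 calls and in the 8 of 10 above 0, and adds no evidence to either. At such low levels the size of the log2 value depends on the pseudocount, with 1.91 at 0.5 and 2.78 at 0.1. LYRM9 shares 57.1% of its transcript with another annotated gene, so its value is uncertain. ETFRF1, which acts on an electron transfer flavoprotein, went from 17.7 and 16.9 TPM to 28.6 and 28.5 TPM (0.69 ± 0.12 SE, limma adjusted p 0.00591). The family's median was 0.15, with 8 of 10 above 0 (6446 of 12042 over all tested genes), whereas the value of LYRM4 was −0.27; the difference was not tested. FECH, ETFRF1, IBA57, LIAS, SDHB and the 4 DNA genes beside NTHL1 were named after their values were seen.

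**Figure D3:**
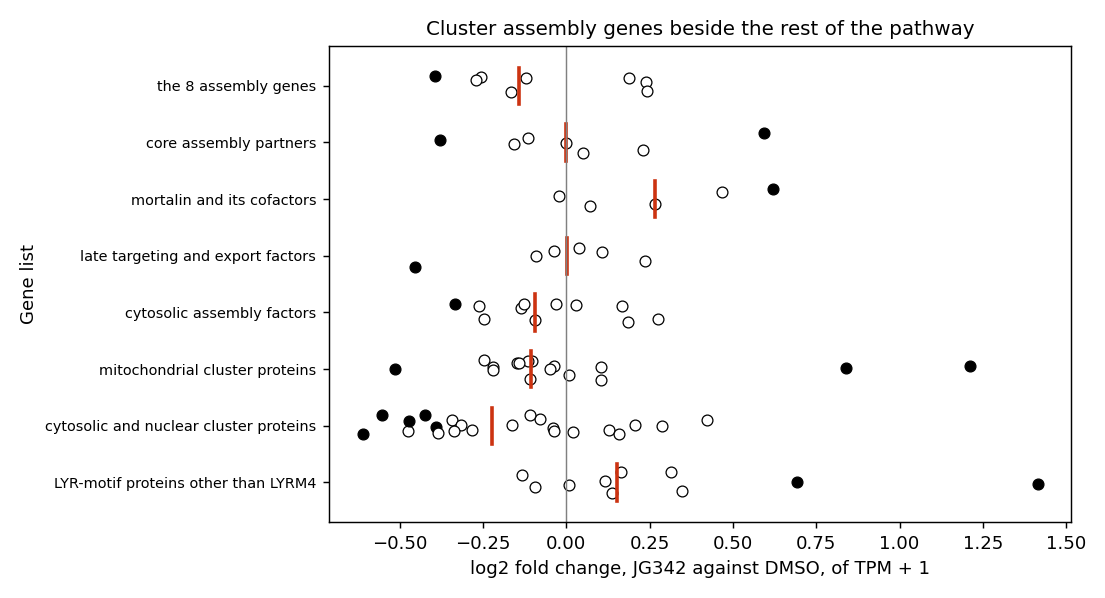
Log2 fold change of TPM + 1, JG342 against DMSO, for every gene of the 8 assembly genes and 7 further lists: each circle is a gene, filled where the limma adjusted p was under 0.05, and red bars are list medians. The medians run from −0.22 for the cytosolic and nuclear cluster proteins to 0.27 for mortalin and its cofactors, and most circles of each list are open.

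With the replicate number as a block, 4 of the 8 assembly genes passed, ISCU as higher and GLRX5, LYRM4 and ISCA1 as lower. Over all genes that fit called 34.9%, with 19.2% higher and 15.7% lower. With the block and median scaling together, GLRX5, LYRM4 and ISCA1 passed as lower and ISCU did not, beside 33.1% of all genes in either direction. The share called lower alone was not computed for that fit. NFS1, HSCB, ISCA2 and NFU1 passed in neither fit.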

How the data were processed

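RNA sequencing profiled 2 libraries per treatment. The authors deposited 1 value per gene and library, with a RefSeq accession, taken as TPM because every library has nearly the same total, 994463 to 994718. The submitters' processing notes name HISAT2 2.0.4, Bowtie2 2.2.5 and RSEM 1.2.12 without roles; build, annotation, strandedness and filters are not given in the sources used here. Approximate depth came from the step between low values of TPM times transcript length (GENCODE 29) and entered no test.

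Genes averaging under 1 TPM (4015) were left out. The remaining 12042 were fitted on log2(TPM + 1), which understates the change of low genes, with limma 3.58.1 in R 4.3.3 (lmFit, eBayes with trend), treatment as the only term, two-sided, all p-values adjusted over all fitted genes. On simulated data of 12042 genes this comparison recovered 80.7% of changes of 0.5 and 100% of changes of 1 on the log2 scale. Of the calls made there, 5.18% were false. The simulation changed 88 genes by 0.5 and 112 by 1, a smaller share than the 18.4% called in the data. Recovery and the share of false calls can depend on it. No change under 0.5 was simulated, so recovery of the smaller values of assembly genes that did not pass is unknown. The simulated noise depended on expression level alone, with no spread particular to a gene and no effect shared by same-numbered libraries. Recovery in the real libraries can therefore be lower, and a gene that did not pass is not shown to be unchanged. A second fit was blocked on replicate number: same-numbered libraries share a prefix in the sample descriptions, and their deviations from the treatment means correlated with an r of 0.27. That fit left 1 residual degree of freedom and an infinite prior, so each gene's variance was the trend value and not that of its own replicates. Copies were searched with BLAST 2.17.0 (at least 95% identity over 20% of a transcript).

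The 8 genes, the lists and the tests were chosen with earlier results of these data known. Named genes are the 8, mortalin and its cofactors, and per list the smallest p among calls in each direction, or overall where none passed. Alternatives changed the pseudocount, filter, scaling, trend, block and libraries. Some listed genes are not reported here by name.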

Additional observations from a re-analysis of the deposited data

How the results depend on the processing

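The median log2 fold change of the 8 assembly genes ran from −0.21 to −0.11 over the alternatives, of which the filter, the trend and the replicate block alone leave the estimates as they are by construction. Under the pseudocount, scaling and leave-out settings, NFU1 was the 1 gene of the 8 that changed direction (−0.012 to 0.39 with a library left out). The cause of each change below was not tested. List counts are to be read beside the calls over all genes in the same setting. Of the 12042 fitted genes, 2193 passed with a pseudocount of 0.1, 2166 with median scaling, 2000 with quantile normalization and 1508 with no trend. With no filter, all 16057 genes were fitted. Genes past the limma threshold numbered 2221 in all, 828 with no filter on low values, 4207 with the replicate block, 3985 with the replicate block and median scaling, and 773 to 1905 with a library left out. Of the 8 assembly genes, 1 passed as reported, 0 with no filter (2 at an unadjusted limma p under 0.05), 0 with no mean-variance trend (1 unadjusted), 4 with the replicate block, 3 with block and median scaling, and 0 to 1 with a library left out. Core assembly partners gave 2 calls as reported, 0 with no filter and 0 with no trend (2 unadjusted in each), 1 with median scaling, 1 with quantile normalization and 0 to 1 with a library left out. Mortalin and its cofactors gave 1, then 3 and 2 in the fits with the replicate block without and with median scaling, and 1 to 2 with a library left out. Late factors gave 1, 0 with no trend (1 unadjusted) and 0 to 1 with a library left out. Cytosolic assembly factors gave 1; 0 with a pseudocount of 0.1, with no filter (3 unadjusted in each) and with no trend (2 unadjusted); 2 with median scaling and 2 with the replicate block; 3 with both; and 0 with each library left out (1 to 2 unadjusted). Mitochondrial cluster proteins gave 3, 6 with block and median scaling and 2 to 3 with a library left out. Cytosolic and nuclear cluster proteins gave 5, 1 with no filter, 8 with median scaling, 3 with no trend, 9 with the block, 11 with block and median scaling and 0 to 6 with a library left out. The LYR-motif list gave 2, 4 with the replicate block and 1 to 2 with a library left out. With libraries left out, GRPEL1 ran from −0.16 to 0.11 (0.04 without DMSO replicate 2, 0.11 without JG342 replicate 1) and DNLZ from −0.12 (without DMSO replicate 2) to 0.26. With 1 library left in an arm, its spread is assumed to be that of the other arm. TPM do not record depth, which limits the least abundant gene, ISCA2, most.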

Other observations

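Of the 8 assembly genes, 4 have a start site within 1000 bases of an oppositely directed RefSeq gene that was also tested (GRCh38.p14). LYRM4 lies 57 bases from FARS2, the mitochondrial phenylalanyl-tRNA synthetase, whose log2 fold change was −0.33 ± 0.15 SE (limma adjusted p 0.171) beside −0.27 for LYRM4. NFS1 lies 53 bases from ROMO1, a small mitochondrial inner membrane protein, at −0.23 ± 0.11 SE (limma adjusted p 0.185) beside −0.17 for NFS1. None of these 4 values passed the threshold.

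HSCB lies 212 bases from CHEK2, a DNA damage checkpoint kinase. CHEK2 was at 28.8 and 29.9 TPM with DMSO and 18.5 and 17.8 TPM with JG342 and fell by 0.66 ± 0.12 SE in log2 units (limma adjusted p 0.00686), whereas HSCB had −0.12 and did not pass; the difference between them was not tested. ISCA2 lies 253 bases from NPC2, a lysosomal cholesterol-binding protein, which ran from 95.2 to 162 TPM with DMSO and from 108 to 152 TPM with JG342 (limma adjusted p 0.924). The neighbours were looked up after the values of the 8 genes were seen.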
